A study of Homo sapiens with 6 samples.

Results

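Nuclear pore and nuclear transport genes were examined in 786-O cells with stable knockdown of YB1. The members were chosen by name: every gene of the deposited table whose symbol begins with NUP, XPO, IPO, KPNA, KPNB, TNPO, NXF or NXT followed by a number (or XPOT), and 13 further genes, RAN, RANBP1, RANBP2, RANGAP1, RCC1, TPR, AAAS, NDC1, SEH1L, SEC13, RAE1, CSE1L and NUTF2. This gave 66 of the 20030 genes in the table, a rule that uses names alone, although the group itself was picked with earlier results of these data known. 786-O is an established line of human renal cancer cells of the clear cell type (ccRCC). The cells had been infected with lentivirus carrying a small hairpin RNA (shRNA) against YB1 (shYB1, 3 libraries) or a vector with a nonsense shRNA that the labels call scrambled (vector, 3 libraries), so that both groups carried an integrated shRNA vector and had passed puromycin selection. RNA was collected 7 days after selection, and the labels give passages 16 to 18. The labels hold 1 shYB1 group, whereas the design text of the series mentions several independent hairpins, so a hairpin-specific change and a change due to YB1 loss cannot be told apart. Nothing states that the 3 libraries of a group came from separate infections or cultures, and p-values therefore measure the spread between these libraries, which may be technical.

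The nuclear pore complex is a large ring of nucleoporins set in the nuclear envelope. An outer and an inner ring form the scaffold, membrane nucleoporins anchor it, nucleoporins rich in phenylalanine-glycine repeats fill the central channel, and further nucleoporins form filaments on the cytoplasmic face and a basket on the nuclear face. Importins and exportins, the receptors of the karyopherin beta family, carry proteins and RNA through the channel, and importin alpha proteins link classical nuclear localization signals to importin beta. The small GTPase RAN sets the direction, since RCC1 loads it with GTP in the nucleus and RANGAP1 stimulates GTP hydrolysis in the cytoplasm. Bulk mRNA leaves through a separate receptor, the heterodimer of NXF1 with NXT1.

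The targeted gene was examined first. YBX1, which encodes the DNA- and RNA-binding Y-box protein YB1, was 366, 373 and 378 FPKM in vector and 167, 166 and 173 FPKM in shYB1, here and below in the order of replicates 1 to 3. FPKM are fragments per kilobase of transcript, scaled by the number of fragments mapped in each library. The shYB1 libraries were well below the vector libraries, and YBX1 fell (log2 fold change -1.14, SE 0.031, adjusted p = 1.53e-08, by limma, with p-values adjusted over every gene tested by the Benjamini-Hochberg method). An exact two-sided permutation test of this gene gave p = 0.1, the smallest that 3 libraries against 3 allow. FPKM totals over all genes were 282736 to 295887, and the spacing of the lowest values put the relative depth of the libraries between 0.981 and 1.10 of that of shYB1 replicate 1; the absolute depth is unknown. All 6 markers of renal epithelium and clear cell carcinoma averaged 1 FPKM or more (PAX8, a kidney lineage factor, 77.1 and 77.5 FPKM in vector and shYB1). They summed to 1747 to 1837 FPKM in vector and 1813 to 1851 FPKM in shYB1, most of it from VIM (means 1400 and 1437 FPKM). PAX2 was higher in shYB1 (0.15, adjusted p = 0.0392). CA9 was below vector in every shYB1 library without passing the test (-0.18, adjusted p = 0.0577). PAX8, KRT8, KRT18 and VIM did not pass either. Of the markers of other cell types, CD3E and CDH5 were listed at 0 in every library, the 4 endothelial markers summed to at most 0.564 FPKM, and the 5 fibroblast markers to 2.27 to 2.71 FPKM. The 5 leukocyte markers summed to 24.7 to 25.4 FPKM in vector and 22.1 to 22.7 FPKM in shYB1, nearly all of it from the lysosomal protein gene CD68, which fell (-0.16, adjusted p = 0.00969). Of 12 proliferation genes, 5 (AURKA, BUB1, CCNB1, PCNA and PLK1) were higher in shYB1 at an adjusted p under 0.05, beside 18.7% of all genes tested. None of the 12 was lower, beside 6.93%. TOP2A lay below vector in every shYB1 library without passing the test (-0.035, adjusted p = 0.435), and the groups overlapped in MKI67, CCNB2, MCM2 and MCM6. The summed level of the 12 was 408 to 424 FPKM in vector and 449 to 466 FPKM in shYB1. Of the 12 changes, 11 were above 0, beside 64.1% of all genes tested, which is also the direction of most transport genes below. The part of the proliferation genes in those results was not tested.

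Transport genes were on balance higher in YB1 knockdown cells, by small amounts. In such bulk libraries, more cells of a kind and more RNA per cell cannot be told apart. Of the 66 members, 57 reached 1 FPKM on average across the libraries and were tested; the other 9 are named further on. Of the 57, 30 were higher in shYB1 at an adjusted p under 0.05, beside 18.7% of the 10439 genes tested, and 1 was lower (TNPO2), beside 6.93%. The other 26 did not pass the test. At an unadjusted limma p under 0.05, 36 members were higher and 1 lower, beside 28.2% and 10.8% of all genes tested. In 40 members the lowest shYB1 library exceeded the highest vector library, which was so for 30.1% of all genes tested, and in 3 (XPO7, IPO7 and TNPO2) the order was the opposite, which was so for 12.5%. The median log2 fold change of the 57 members was 0.18 on the log2(FPKM + 0.1) scale, against 0.055 for all genes tested, and 49 members were above 0, beside 64.1% of all genes. No member tested was past the screening criteria of the study (a fold change of at least 2 with an unadjusted p under 0.05), applied here to limma changes of log2(FPKM + 0.1). Of all genes tested, 4 passed upward (0.0383%) and 19 downward (0.182%). The members' changes ran from -0.17 to 0.41. Summed over the 66 genes, the level was 838 ± 9.84 FPKM in vector and 940 ± 7.37 FPKM in shYB1 (SD, n = 3 each), 12.2% higher.

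The counts depended on how the libraries were scaled. With FPKM divided by size factors from the median of ratios (median-of-ratios scaling), which centre the typical gene on no change, 18 members were higher (11.2% of all genes) and 2 lower (12.2% of all genes), namely TNPO2 and IPO7; over all genes the split moved from 1956 higher and 723 lower to 1171 and 1273. All 18 were among the 30, and the members' median was then 0.12 against -0.00057 for all genes. At an unadjusted limma p under 0.05, 28 members were higher with this scaling and 4 lower (IPO7, NUP62, TNPO2 and XPO7). The share of all genes at that limit was not worked out for this scaling, so these 2 counts have no background to be read against. The distance between the members' median and that of all genes was 0.12 with the deposited scaling. The 18 called higher with median-of-ratios scaling were NUP188, NUP93, NUP155, NUP98, NUP88, NUP153, TNPO1, IPO13, KPNB1, IPO11, IPO5, KPNA4, KPNA2, XPOT, CSE1L, XPO6, RANGAP1 and NUTF2, and each of them was also called higher in every other alternative in which it was tested. Of the 30, 26 were still called without a filter on low values, 20 after quantile normalization, 26 when the variance prior had no trend and 29 with the replicate number as a block. Losses in these settings are not all repeated with the single genes below. With median-of-ratios scaling 5 of the 12 proliferation genes were higher and 1 lower (TOP2A, -0.092, adjusted p = 0.0412). Of the kidney markers, CA9 was then lower (-0.24, adjusted p = 0.0180) and PAX2 was not called (0.166).

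**Figure D1:**
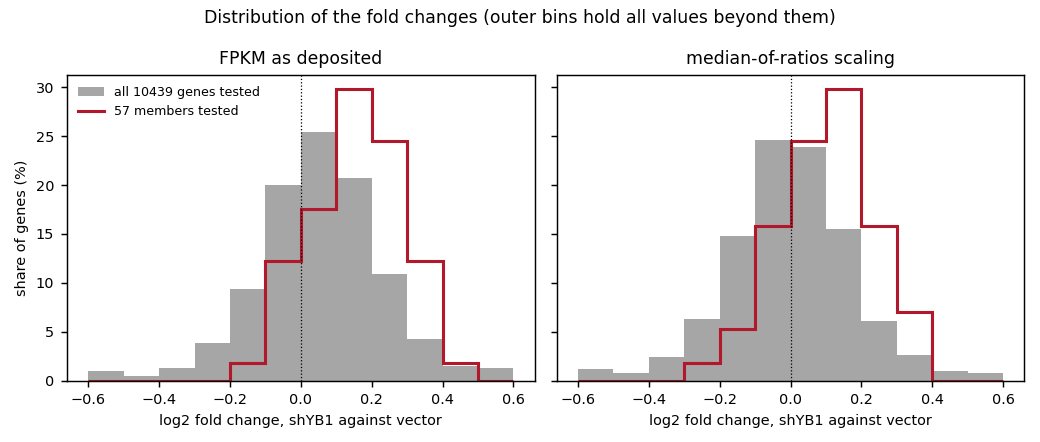
Share of genes (%) in bins of log2 fold change between shYB1 and vector, for the 57 members tested (red line) and all 10439 genes tested (grey), with the deposited FPKM on the left and after median-of-ratios scaling on the right. The members' median lies to the right of that of all genes in both panels (0.18 against 0.055 and 0.12 against -0.00057). The distributions overlap, and 8 members on the left and 13 on the right lie below 0.

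**Figure D2:**
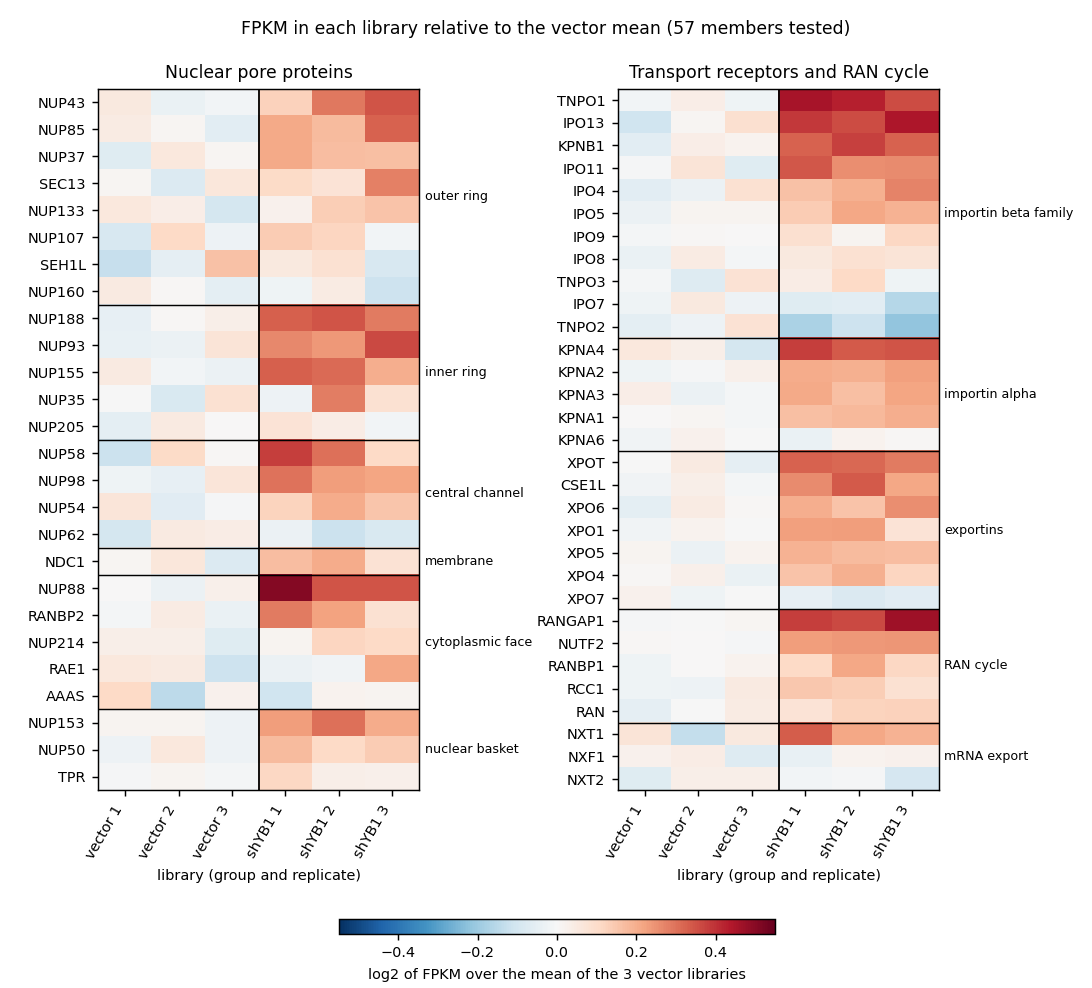
Heat map of each tested member (rows, grouped by role) in each of the 6 libraries (columns), coloured by the log2 of its FPKM over the mean of the 3 vector libraries. In 40 of the 57 rows every shYB1 library lies above every vector library, and in TNPO2, IPO7 and XPO7 every one lies below.

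Since YB1 was named for its binding to the Y-box, the letters CCAAT or their reverse complement ATTGG, the 250 bases before each start were read from RefSeq promoters of GRCh38.p14, of which 58 of the 66 members had an entry. The letters were found in 32.0% of all promoters in that table and in 36.0% of those of genes tested, against 21 of the 52 tested members with an entry (40.4%), 11 of the 27 that were higher (40.7%) and 9 of the 24 that did not pass the test (37.5%). The E-box letters CACGTG, which read the same on both strands and cannot overlap the Y-box letters, were found in 13.5% of the tested members and 9.07% of the genes tested. CCAAT and ATTGG can overlap each other by the letters AT. Such short runs occur often by base composition, and a match is not a binding site. Stretches of these promoters that touch no annotated exon are printed on the gene's strand, with Y-box letters in capitals, for a few members. They belong to 2 exportin genes that were higher and the member that was lower. The others are the gene of the RAN cycle with the largest change and an inner ring gene that did not pass the test. Most of the printed stretches hold a match, unlike the promoters of the members as a whole. The stretches of XPOT, the exportin with the largest change, and of XPO5 hold 0 matches and are not printed. Printed are CSE1L (chr20:49046062-49046245, plus strand, 184 bases, with a match starting 93 bases before the start), XPO1 (chr2:61538357-61538491, minus strand, 135 bases, matches at 75 and 32), TNPO2 (chr19:12724012-12724182, minus strand, 171 bases, a match at 158), RANGAP1 (chr22:41286252-41286437, minus strand, 186 bases, no match) and NUP205 (chr7:135557667-135557916, plus strand, 250 bases, a match at 148). The RANGAP1 start used lies 3673 bases from that of the transcript the table names, so this stretch may not lie before the start of the measured transcript. Of the 58 members with an entry, 11 had a start over 100 bases from that of the named transcript, and for 10, XPO1 among them, no named transcript was matched.
CSE1L: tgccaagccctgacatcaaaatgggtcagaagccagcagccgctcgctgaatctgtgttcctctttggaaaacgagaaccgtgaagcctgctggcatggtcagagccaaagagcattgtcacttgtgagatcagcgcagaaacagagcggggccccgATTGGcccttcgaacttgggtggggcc
XPO1: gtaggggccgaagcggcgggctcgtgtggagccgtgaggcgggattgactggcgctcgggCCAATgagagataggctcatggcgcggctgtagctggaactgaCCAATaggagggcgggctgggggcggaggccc
TNPO2: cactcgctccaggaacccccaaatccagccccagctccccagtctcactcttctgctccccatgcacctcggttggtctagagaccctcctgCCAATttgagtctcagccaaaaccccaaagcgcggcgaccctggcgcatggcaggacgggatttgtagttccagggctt
RANGAP1: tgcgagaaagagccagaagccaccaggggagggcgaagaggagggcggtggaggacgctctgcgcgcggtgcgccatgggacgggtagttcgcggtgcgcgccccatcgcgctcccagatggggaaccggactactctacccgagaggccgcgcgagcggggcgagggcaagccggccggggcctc
NUP205: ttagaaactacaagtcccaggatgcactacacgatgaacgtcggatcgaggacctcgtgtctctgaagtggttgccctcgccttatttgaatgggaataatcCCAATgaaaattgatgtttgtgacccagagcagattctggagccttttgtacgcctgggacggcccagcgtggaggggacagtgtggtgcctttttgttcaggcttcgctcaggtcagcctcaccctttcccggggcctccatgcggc
The letters thus stood before members that were higher, lower and not called, and in the members that were higher they were about as frequent as in those that did not pass the test.

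The counts by role that follow stand beside 18.7% of all genes tested called higher and 6.93% called lower. With median-of-ratios scaling these shares were 11.2% and 12.2%. Every shYB1 library lay above every vector library in 30.1% of all genes tested, and below in 12.5%. The outer ring, or Y-complex, had 8 members tested, of which 3 (NUP43, NUP85 and NUP37) were higher and 0 lower. NUP37, a beta-propeller subunit and the outer ring gene with the highest mean level, was 14.9, 16.2 and 15.7 FPKM in vector and 18.01, 17.5 and 17.5 FPKM in shYB1 (log2 fold change 0.18, SE 0.045, adjusted p = 0.0147). NUP85, which lies in the short arm of the Y, was 8.49, 8.29 and 7.90 FPKM in vector and 9.52, 9.28 and 10.3 FPKM in shYB1 (log2 fold change 0.23, SE 0.056, adjusted p = 0.0128). NUP43, another beta-propeller subunit, was 5.84, 5.49 and 5.57 FPKM in vector and 6.14, 6.88 and 7.16 FPKM in shYB1 (log2 fold change 0.25, SE 0.066, adjusted p = 0.0202). In each of these genes the lowest shYB1 library lay above the highest vector library. With median-of-ratios scaling 0 of the 8 passed the limma test, the adjusted p of NUP37, NUP85 and NUP43 being 0.0544, 0.0512 and 0.0633. At an unadjusted limma p under 0.05, 3 were higher with this scaling, a limit at which the share of all genes was not worked out. NUP37 was not called without vector replicate 1 (adjusted p = 0.0559) or shYB1 replicate 1 (0.05401), and NUP43 was not called without vector replicate 2 (0.0601), shYB1 replicate 2 (0.0697) or shYB1 replicate 3 (0.0696). The 5 remaining members, SEC13 (shared with the COPII coat of secretory vesicles), NUP133, NUP107, SEH1L and NUP160, had log2 fold changes of 0.15, 0.10, 0.082, 0.022 and -0.029 with adjusted p from 0.0923 to 0.867. In SEC13 every shYB1 library lay above every vector library, whereas the groups overlapped in NUP133, NUP107, SEH1L and NUP160.

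The inner ring, which holds the scaffold to the membrane and to the channel, had 5 members, of which 3 rose, beside 18.7% of all genes tested. NUP188, one of its large scaffold subunits, was 12.8, 13.3 and 13.5 FPKM in vector and 16.6, 16.8 and 16.1 FPKM in shYB1 (log2 fold change 0.32, SE 0.043, adjusted p = 0.000670). NUP93, which anchors the channel nucleoporins to the ring, was 13.6, 13.6 and 14.7 FPKM in vector and 16.8, 16.5 and 17.98 FPKM in shYB1 (log2 fold change 0.29, SE 0.05, adjusted p = 0.00268). NUP155, a subunit next to the membrane, was 12.1, 11.5 and 11.4 FPKM in vector and 14.6, 14.5 and 13.4 FPKM in shYB1 (log2 fold change 0.28, SE 0.05, adjusted p = 0.00312). The groups did not overlap in any of the 3. NUP205, the paralogue of NUP188 and the inner ring gene with the highest level, was 18.9, 20.3 and 19.7 FPKM in vector and 20.7, 20.2 and 19.4 FPKM in shYB1, and its groups overlapped (log2 fold change 0.034, SE 0.044, adjusted p = 0.602; 95% confidence interval -0.06 to 0.13); with median-of-ratios scaling its change was -0.022. NUP35, a small membrane-binding subunit, was 2.91 ± 0.169 and 3.16 ± 0.3499 FPKM (SD, n = 3 each; adjusted p = 0.395).

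The central channel had 4 members tested, of which 2 were higher, beside 18.7% of all genes tested. NUP98, whose repeats are a main part of the permeability barrier, was 7.304, 7.199 and 7.77 FPKM in vector and 9.13, 8.71 and 8.63 FPKM in shYB1 (log2 fold change 0.25, SE 0.053, adjusted p = 0.00761). NUP58 was 5.16, 6.03 and 5.64 FPKM in vector and 7.29, 6.92 and 6.06 FPKM in shYB1 (log2 fold change 0.26, SE 0.08, adjusted p = 0.0364), and the gap between the groups was small (highest vector 6.03, lowest shYB1 6.06 FPKM). Its call was lost with median-of-ratios scaling (adjusted p = 0.0856), quantile normalization (0.0872), no filter on low values (0.0874) and a variance prior without trend (0.0649). It was also lost without vector replicate 1 (0.123), vector replicate 3 (0.0664), shYB1 replicate 1 (0.125) or shYB1 replicate 2 (0.106). NUP62, the third protein of the channel complex with NUP58 and NUP54 and the most abundant transcript of the channel, was 19.2, 21.2 and 21.03 FPKM in vector and 20.01, 18.9 and 19.3 FPKM in shYB1, with overlapping groups (log2 fold change -0.076, SE 0.049, adjusted p = 0.283). NUP54 was 7.93 ± 0.356 and 8.87 ± 0.262 FPKM and just missed the threshold (adjusted p = 0.0503), which it passed without vector replicate 1 (0.0472) or with a filter at 5 FPKM (0.0387). The transcripts of the 3 proteins of this complex therefore had changes of 0.26, 0.16 and -0.076, of which only that of NUP58 passed.

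On the cytoplasmic face, 1 of 5 members was higher (20%), which is near the 18.7% of all genes tested. NUP88, the partner of NUP214 in the mRNA export platform, was 4.91, 4.78 and 4.998 FPKM in vector and 6.96, 6.22 and 6.22 FPKM in shYB1 (log2 fold change 0.39, SE 0.062, adjusted p = 0.00163), the largest change among the nucleoporins tested. Every shYB1 library exceeded every vector library by more than 1 FPKM. NUP214 itself was 8.55 ± 0.3297 and 9.06 ± 0.359 FPKM with overlapping groups (adjusted p = 0.286). RANBP2, the SUMO ligase of the filaments, was above the vector libraries in all 3 shYB1 libraries (0.19, adjusted p = 0.0612) and, of the alternatives, passed the test only without shYB1 replicate 3 (0.0352). The mRNA export factor RAE1 had a change of 0.055 (adjusted p = 0.639) and, with median-of-ratios scaling, one near 0. AAAS, which encodes the protein ALADIN and was the most abundant of these transcripts, was 12.8, 10.7 and 12.03 FPKM in vector and 10.96, 11.99 and 11.96 FPKM in shYB1 (log2 fold change -0.022, SE 0.067, adjusted p = 0.844), and the groups overlapped. In the nuclear basket, 1 of 3 was higher: NUP153, which tethers the basket, was 8.16, 8.16 and 7.93 FPKM in vector and 9.48, 9.98 and 9.304 FPKM in shYB1 (log2 fold change 0.24, SE 0.049, adjusted p = 0.00587). TPR, the long coiled-coil protein of the basket and its most abundant transcript, was 12.9, 13.1 and 12.9 FPKM in vector and 14.1, 13.3 and 13.2 FPKM in shYB1, which all lay above vector without passing the test (log2 fold change 0.058, SE 0.044, adjusted p = 0.373). NUP50, which binds importin alpha, was 10.1 ± 0.348 and 11.1 ± 0.243 FPKM (adjusted p = 0.0533, 0.0471 without vector replicate 2 and 0.0433 with a filter at 5 FPKM). NDC1, the only membrane nucleoporin tested, was 10.7, 11.1 and 10.1 FPKM in vector and 11.98, 12.3 and 11.3 FPKM in shYB1 (log2 fold change 0.15, SE 0.054, adjusted p = 0.0623). It passed the test when shYB1 replicate 3 was left out (0.0472), with a filter at 5 FPKM (0.0486) and with the replicate number as a block (0.0375). Over all 26 nucleoporins tested, 10 were higher and 0 lower, beside 18.7% and 6.93% of all genes tested. With median-of-ratios scaling 6 were higher and 0 lower, beside 11.2% and 12.2%.

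Among the 11 importins of the karyopherin beta family, 6 were higher and 1 was lower, beside 18.7% and 6.93% of all genes tested. TNPO1 (transportin-1), which imports RNA-binding proteins, was 11.7, 12.1 and 11.6 FPKM in vector and 16.1, 15.8 and 15.1 FPKM in shYB1 (log2 fold change 0.41, SE 0.045, adjusted p = 0.000181), the largest change of all members. IPO13, a receptor that carries cargo in both directions, was 16.96, 18.4 and 19.4 FPKM in vector and 23.9, 23.4 and 24.9 FPKM in shYB1 (log2 fold change 0.40, SE 0.053, adjusted p = 0.000599). KPNB1, importin beta itself and the most abundant importin transcript, was 46.3, 49.5 and 48.9 FPKM in vector and 60.4, 62.6 and 60.4 FPKM in shYB1 (log2 fold change 0.34, SE 0.037, adjusted p = 0.000159). In these genes the groups were far apart, with gaps of 3 FPKM or more between the nearest libraries. IPO11, which imports ubiquitin-conjugating enzymes (0.28, adjusted p = 0.0109), IPO4, a receptor for histones (0.21, 0.01901), and IPO5, which imports ribosomal proteins among other cargo (0.18, 0.00684), also rose. The call of IPO4 was lost with median-of-ratios scaling (0.0564) and without vector replicate 1 (0.0689), vector replicate 2 (0.0576) or shYB1 replicate 3 (0.0633).

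TNPO2, the close paralogue of TNPO1, was the only member that fell. It was 13.4, 13.6 and 14.7 FPKM in vector and 12.3, 12.9 and 11.98 FPKM in shYB1 (log2 fold change -0.17, SE 0.051, adjusted p = 0.0368), and every shYB1 library lay below every vector library. The call was lost without a filter on low values (adjusted p = 0.0681), with a variance prior without trend (0.0641) and without vector replicate 2 (0.0608), vector replicate 3 (0.1105), shYB1 replicate 1 (0.0932) or shYB1 replicate 3 (0.106), while its change stayed below 0 in each. IPO7, which imports ribosomal proteins and signalling factors, was 24.6, 25.97 and 24.6 FPKM in vector and 23.9, 24.1 and 22.5 FPKM in shYB1, also below vector in every library; it did not pass the test (-0.093, adjusted p = 0.139) but did with median-of-ratios scaling (-0.15, adjusted p = 0.0291). Its paralogue IPO8 (0.069, adjusted p = 0.303), the histone receptor IPO9 (0.072, 0.269) and TNPO3, which imports splicing factors (0.044, 0.552), did not pass.

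**Figure D3:**
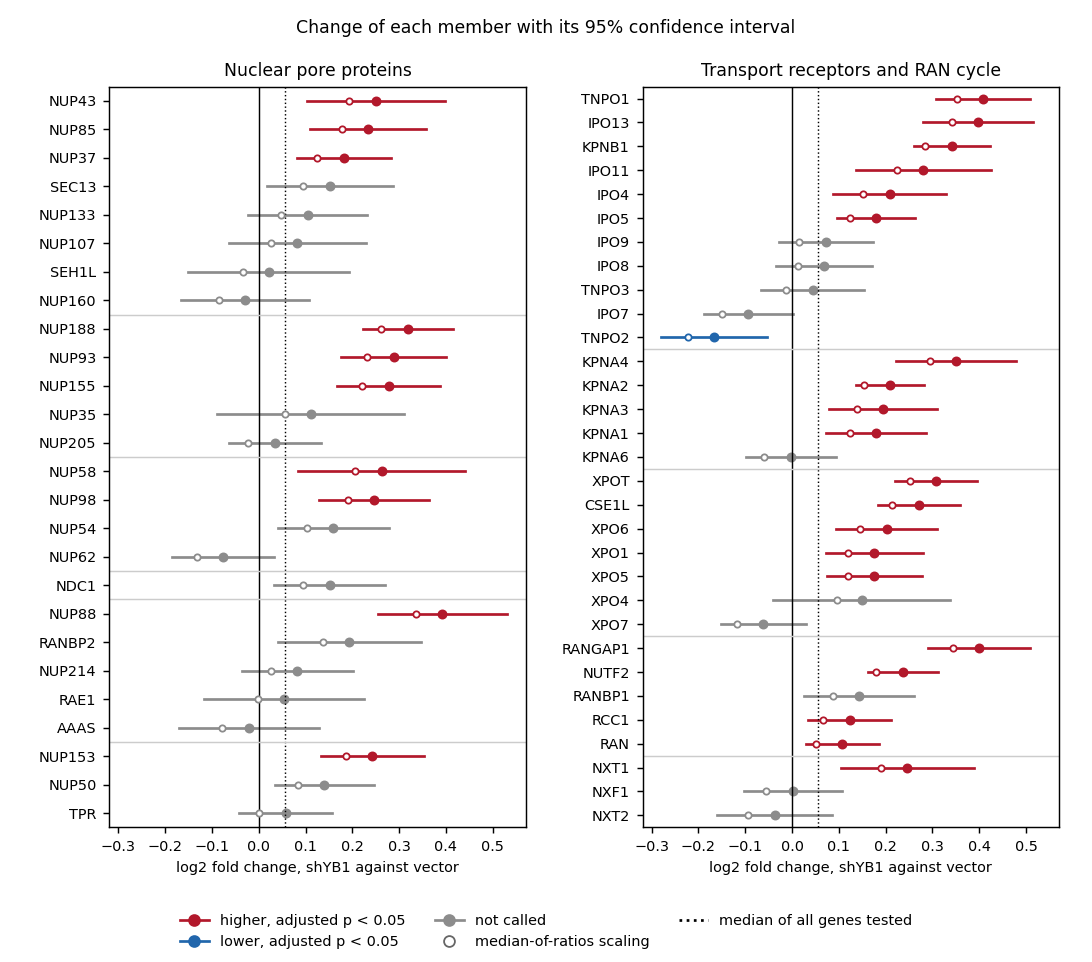
Log2 fold change of each tested member (filled points) with its 95% confidence interval by limma (lines), grouped by role, coloured red or blue where the adjusted p was under 0.05; open points give the change with median-of-ratios scaling and the dotted line the median of all genes tested (0.055). The 30 members in red lie between 0.11 and 0.41, and TNPO2, in blue, lies at -0.17.

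Of the 5 importin alpha genes tested, 4 were higher and 0 lower, beside 18.7% and 6.93% of all genes tested. KPNA4 (importin alpha-3) was 6.14, 6.03 and 5.503 FPKM in vector and 7.66, 7.43 and 7.49 FPKM in shYB1 (log2 fold change 0.35, SE 0.058, adjusted p = 0.00193). KPNA2 (importin alpha-1), the most abundant adaptor here and one whose expression follows the cell cycle, was 41.3, 41.7 and 42.8 FPKM in vector and 48.4, 48.1 and 49.1 FPKM in shYB1 (log2 fold change 0.21, SE 0.033, adjusted p = 0.00155). KPNA3, a close relative of KPNA4, was 6.03, 5.75 and 5.83 FPKM in vector and 6.78, 6.58 and 6.83 FPKM in shYB1 (log2 fold change 0.19, SE 0.052, adjusted p = 0.02104). All libraries of these 3 genes separated by group. KPNA1 changed by 0.18 (adjusted p = 0.0215), whereas KPNA6 was 11.9 ± 0.177 and 11.9 ± 0.226 FPKM (SD, n = 3 each) with a 95% confidence interval of -0.10 to 0.09 on the log2 scale. With median-of-ratios scaling the calls of KPNA1 and KPNA3 were lost (0.0888 and 0.0868). KPNA3 was not called without vector replicate 2 (0.0607), shYB1 replicate 1 (0.0634) or shYB1 replicate 3 (0.0605). KPNA1 was not called without any one of the libraries except vector replicate 2, with adjusted p from 0.0505 to 0.0633.

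Of the 7 exportins, 5 were higher and 0 lower, beside 18.7% and 6.93% of all genes tested. XPOT, which exports tRNA, was 23.9, 24.8 and 23.1 FPKM in vector and 30.03, 29.8 and 29.2 FPKM in shYB1 (log2 fold change 0.31, SE 0.039, adjusted p = 0.000458). CSE1L, which returns importin alpha to the cytoplasm and whose promoter is printed above, was the most abundant exportin transcript, at 44.8, 46.3 and 44.97 FPKM in vector and 54.4, 57.4 and 52.6 FPKM in shYB1 (log2 fold change 0.27, SE 0.039, adjusted p = 0.000999). XPO6, which exports actin, was 10.5, 11.3 and 10.95 FPKM in vector and 12.5, 12.2 and 13.0 FPKM in shYB1 (log2 fold change 0.20, SE 0.048, adjusted p = 0.0128). The groups did not overlap in any of these. XPO1, the receptor for leucine-rich nuclear export signals, was 26.1 ± 0.325 FPKM in vector and 29.5 ± 1.76 FPKM in shYB1 (log2 fold change 0.18, SE 0.047, adjusted p = 0.0199), and XPO5, which exports pre-miRNA, 8.86 ± 0.181 and 10.02 ± 0.0765 FPKM (log2 fold change 0.18, SE 0.046, adjusted p = 0.0183). With median-of-ratios scaling these did not pass (0.0867 and 0.0831). The call of XPO1 was lost without vector replicate 1 (0.0623), shYB1 replicate 1 (0.0745) or shYB1 replicate 2 (0.0764), and that of XPO5 without vector replicate 2 (0.0564), shYB1 replicate 1 (0.0578) or shYB1 replicate 2 (0.0538). XPO4, an exportin for a translation factor and the member with the lowest level among those tested, had all shYB1 libraries above vector (1.46 ± 0.0342 and 1.63 ± 0.0423 FPKM, adjusted p = 0.225). It was called only with a variance prior without trend (0.0486). XPO7 had all below (14.7 ± 0.2603 and 14.1 ± 0.175 FPKM, adjusted p = 0.3004). Of the whole karyopherin beta family of 18 importins and exportins, 11 were higher and 1 was lower, and 8 and 2 with median-of-ratios scaling.

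Of the 5 genes of the RAN cycle, 4 were higher and 0 lower, beside 18.7% and 6.93% of all genes tested. In all 5 the shYB1 libraries lay above the vector libraries, which was so for 30.1% of all genes tested. RANGAP1, the GTPase-activating protein, was 7.79, 7.82 and 7.89 FPKM in vector and 10.2, 10.1 and 10.8 FPKM in shYB1 (log2 fold change 0.40, SE 0.049, adjusted p = 0.000349). NUTF2, which returns RAN to the nucleus, was 25.8, 25.8 and 25.6 FPKM in vector and 30.2, 30.3 and 30.4 FPKM in shYB1 (log2 fold change 0.24, SE 0.034, adjusted p = 0.000921), with an SD of at most 0.130 FPKM in either group. RCC1, the nucleotide exchange factor, was 23.02, 22.9 and 24.2 FPKM in vector and 25.9, 25.7 and 24.8 FPKM in shYB1 (log2 fold change 0.12, SE 0.04, adjusted p = 0.0464). Of these, RANGAP1 had the larger change. RAN, the most abundant transcript of all members, was 71.7, 74.1 and 76.6 FPKM in vector and 77.97, 80.8 and 80.8 FPKM in shYB1 (log2 fold change 0.11, SE 0.035, adjusted p = 0.0471). The calls of RAN and RCC1 stood close to the threshold. With median-of-ratios scaling their adjusted p was 0.251 and 0.231; RAN was not called without any one library except vector replicate 3 (0.0625 to 0.159), and likewise RCC1 (0.0522 to 0.135). RANBP1, which helps RANGAP1 act on RAN, was 6.46 ± 0.0942 and 7.14 ± 0.293 FPKM (adjusted p = 0.0725).

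Of the mRNA export receptor genes, 3 were tested and 1 was higher, beside 18.7% of all genes tested. NXT1, the small cofactor of NXF1, was 11.4, 9.91 and 11.3 FPKM in vector and 13.7, 12.6 and 12.4 FPKM in shYB1 (log2 fold change 0.25, SE 0.064, adjusted p = 0.0187). Its call was lost with median-of-ratios scaling (0.0651) and without vector replicate 2 (0.0559) or shYB1 replicate 1 (0.0703). NXF1, the receptor itself and the most abundant of the 3, was 14.3, 14.5 and 13.4 FPKM in vector and 13.7, 14.3 and 14.3 FPKM in shYB1, with overlapping groups (log2 fold change 0.0014, SE 0.047, adjusted p = 0.986, 95% confidence interval -0.10 to 0.11). NXT2, a relative of NXT1, was 6.87 ± 0.274 and 6.69 ± 0.215 FPKM (adjusted p = 0.657).

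Ratios of members within a library do not change when each library is multiplied by 1 factor, as with size factors or a common total, but they do change with quantile normalization. The ratio of TNPO1 to TNPO2 was 0.870, 0.885 and 0.789 in vector and 1.31, 1.23 and 1.26 in shYB1 (means 0.848 ± 0.0511 and 1.27 ± 0.0396, SD, n = 3 each), so that per kilobase TNPO2 was the more abundant transcript in every vector library and TNPO1 in every shYB1 library. The ratio of NUP188 to NUP205 was 0.677, 0.653 and 0.686 in vector and 0.801, 0.830 and 0.828 in shYB1, 21.9% higher. NXT1 over NXF1 was 0.774 ± 0.0807 and 0.917 ± 0.0752, 18.5% higher, and IPO8 over IPO7 0.393 ± 0.00465 and 0.440 ± 0.0174, 12.0% higher. KPNA4 over KPNA6 was 28.2% higher, RANGAP1 over RCC1 21.6% higher and KPNB1 over RAN 17.7% higher in shYB1. In all 7 pairs every shYB1 library exceeded every vector library. The pairs were chosen after the values were seen and were not tested, and a ratio shows unequal change, not which member moved.

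**Figure D4:**
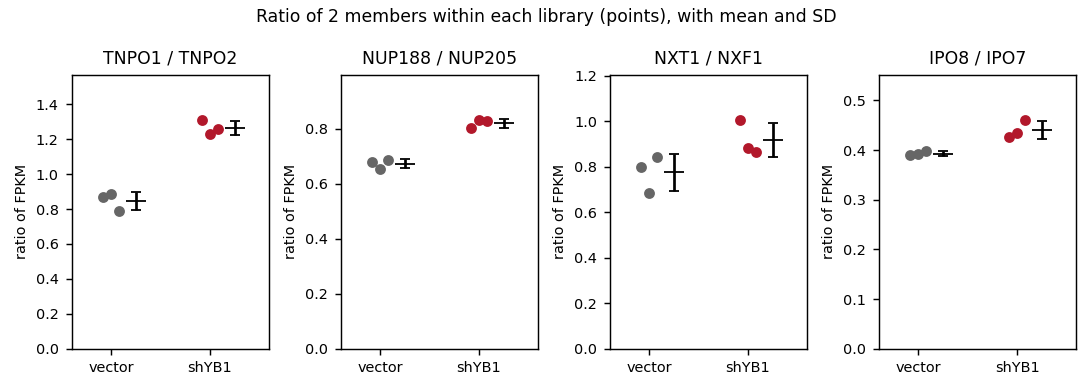
Ratio of the FPKM of 2 members within each library (points, 3 vector and 3 shYB1 libraries) with the mean and SD beside them, for TNPO1 over TNPO2, NUP188 over NUP205, NXT1 over NXF1 and IPO8 over IPO7. Each ratio is higher in all 3 shYB1 libraries, and that of TNPO1 to TNPO2 moves from 0.848 to 1.27.

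The members were mostly well expressed. Of the 57 tested, 43 were above the median level of all genes tested, which was 7.30 FPKM, and 53 had a mean of at least 5 FPKM. Levels ran from 1.54 FPKM (XPO4) to 77.0 FPKM (RAN), and after RAN came KPNB1 (54.7), CSE1L (50.1) and KPNA2 (45.2 FPKM, means over the 6 libraries). Spearman's rho between mean FPKM and log2 fold change was -0.013 over the 57 members, which share the same 6 libraries and are not independent. Changes of at least 0.25 were seen in 13 of the 57 members and in 11.1% of all genes tested. Summed by role, the difference was largest in the exportins (131 ± 1.80 and 152 ± 3.91 FPKM, 15.9% higher), the inner ring (61.3 ± 1.04 and 71.0 ± 0.898 FPKM, 15.7%) and the importin alpha genes (73.2 ± 0.316 and 83.3 ± 0.827 FPKM, 13.8%). It was smallest in the central channel (42.3 ± 1.23 and 44.7 ± 1.31 FPKM, 5.68%) and the mRNA export receptors (31.8 ± 0.440 and 33.7 ± 0.513 FPKM, 5.85%). These sums are descriptions without a test. In the annotation of the deposited table, 41 of the 66 members carried the KEGG pathway RNA transport.

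**Figure D5:**
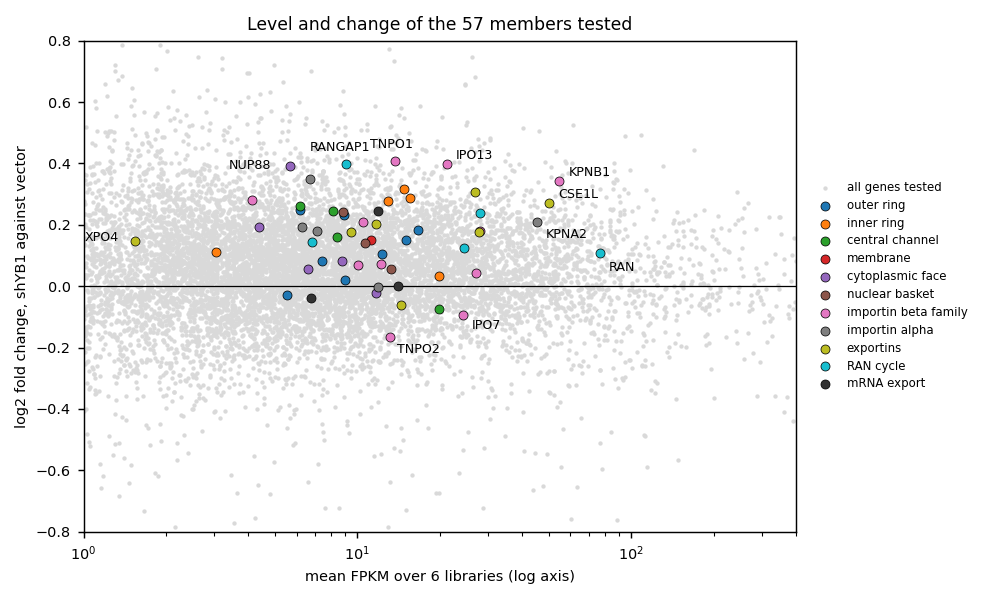
Mean FPKM over the 6 libraries (log axis) against the log2 fold change between shYB1 and vector for the 57 members tested, coloured by role, over all genes tested in grey (values beyond the axes are not drawn). Large changes occur at both low levels (NUP88) and high levels (KPNB1), and Spearman's rho over the members is -0.013.

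The 9 members that were not tested were NUP62CL, KPNA5, KPNA7, NUP210, NUP210L, NXF2, NXF2B, NXF3 and NXF5. NXF2, NXF2B, NXF3 and NXF5, relatives of NXF1, were listed at 0 in all 6 libraries. NUP62CL was 1.02, 0.497 and 1.04 FPKM in vector and 1.03, 0.796 and 0.709 FPKM in shYB1, and KPNA5 was 0.810, 0.840 and 0.794 FPKM in vector and 0.834, 0.854 and 0.988 FPKM in shYB1, with overlapping groups. KPNA7 was at most 0.209 FPKM, and NUP210L was above 0 in 1 library. NUP210, a membrane nucleoporin regulated during differentiation, was 0.0702, 0.0369 and 0.0311 FPKM in vector and 0.0085 FPKM in shYB1 replicate 1, and was listed at 0 in the other two. When no filter on level was used it was called lower (-0.50 on the log2(FPKM + 0.1) scale, adjusted p = 0.0441), with every library under 0.1 FPKM.

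Other genes of the pathway, listed by hand with earlier results of these data known, had a smaller median change than the members. Of 39 such genes in the table, 38 were tested, RANBP17 being under 1 FPKM. Of those tested, 11 were higher and 1 lower, beside 18.7% and 6.93% of all genes tested. Their median log2 fold change was 0.084, against 0.055 for all genes tested. With median-of-ratios scaling 10 were higher and 1 lower, beside 11.2% and 12.2%. THOC7, a subunit of the THO complex that couples transcription to mRNA export, was 24.1, 24.8 and 28.02 FPKM in vector and 30.2, 33.7 and 32.6 FPKM in shYB1 (log2 fold change 0.33, SE 0.062, adjusted p = 0.004403). SENP1, a SUMO protease found at the pore, was 2.96, 2.76 and 2.79 FPKM in vector and 3.47, 3.46 and 3.71 FPKM in shYB1 (log2 fold change 0.31, SE 0.069, adjusted p = 0.00891). RANGRF, a RAN-binding factor, was 6.13, 5.47 and 6.43 FPKM in vector and 7.46, 7.30 and 7.33 FPKM in shYB1 (log2 fold change 0.29, SE 0.065, adjusted p = 0.00905). The groups of all 3 were separate. Others that rose were GLE1, which activates an RNA helicase at the pore (0.27), AHCTF1, which starts pore assembly on chromatin (0.25), the cap-binding proteins NCBP1 (0.25) and NCBP2 (0.22), the export adaptor ALYREF (0.23), the THO subunit THOC6 (0.20) and MCM3AP (0.17), which acts in mRNA export. RANBP6, a relative of IPO5, was the 1 that fell, at 8.22, 8.21 and 8.05 FPKM in vector and 7.59, 7.13 and 7.14 FPKM in shYB1 (log2 fold change -0.16, SE 0.05, adjusted p = 0.0389), and its call was lost without vector replicate 1 (0.0994), vector replicate 2 (0.0879), vector replicate 3 (0.0607), shYB1 replicate 2 (0.123) or shYB1 replicate 3 (0.101). The call of RANBP6 was also lost without a filter on low values (0.0529) and with a common total (0.0555). That of MCM3AP was lost with median-of-ratios scaling (0.124) and quantile normalization (0.127). It was also lost without vector replicate 1 (0.06205), vector replicate 2 (0.0822), shYB1 replicate 1 (0.0589) or shYB1 replicate 2 (0.114). NCBP2 was not called with quantile normalization (0.0540). By part of the pathway, 4 of 20 mRNA export factors, 5 of 13 transport adaptors and 2 of 5 further pore proteins were higher, beside 18.7% of all genes tested, which the share among the mRNA export factors barely exceeded. A further 87 tested genes carry the KEGG pathway RNA transport and are neither members nor among the 39 listed genes. Of these 87, 33 were higher and 3 lower, beside 18.7% and 6.93% of all genes tested. Their median was 0.12, against 0.055 for all genes tested. With median-of-ratios scaling 23 were higher and 9 lower, beside 11.2% and 12.2%.

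Some values rest on sequence shared with other genes. Of the 50-base words in the transcripts of IPO4, 58.4% also occur in other genes, chiefly a readthrough transcript (AL136295.4), in RANBP2 27.2% occur in other genes, chiefly RGPD1, in IPO11 20.04% (LRRC70) and in KPNA2 12.9%. The share was 11.6% for NUP62 (chiefly IL4I1), 10.5% for IPO7, 9.36% for NUP50, 8.95% for XPOT and 8.51% for KPNA6, and at most 6.52% for the other members tested. For YBX1 it was 30.7% (a pseudogene, YBX1P1). Of the members listed at 0 in every library, the share was 99.3% for NXF2 (chiefly NXF2B) and 90.0% for NXF2B (chiefly NXF2). For NXF5 it was 21.5% (chiefly NXF2) and for NXF3 1.47%. Whether fragments were counted by strand is not given in the sources used here, so fragments of overlapping antisense genes cannot be told apart for NUP88 (18.7% of exon bases, RABEP1 and RPAIN), KPNA1 (16.3%), NUP62 (10.4%, ATF5), NUP153 (9.25%), NUP214 (9.16%) and RANBP1 (8.503%, TRMT2A), the share being at most 5.43% for the other members tested. TNPO1 shares 1.97% of its words with other genes, TNPO2 shares 0 and RANGAP1 0.109%. In GENCODE release 29 on GRCh38, TNPO1 lies at chr5:72816312-72916733, TNPO2 at chr19:12699194-12724011, RANGAP1 at chr22:41245611-41286251, NUP188 at chr9:128947699-129007096 and KPNB1 at chr17:47649476-47685505.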

How the data were processed

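RNA sequencing of 786-O cells was analysed for 3 shYB1 and 3 vector libraries, grouped by the labels. The submitters' processing notes name Trimmomatic, HISAT2, Cufflinks, HTSeq and DESeq and the build GRCh38, without versions or settings. The authors deposited FPKM per gene for the 20030 genes listed, with annotation. FPKM hold no counts, so depth and detection limits are unknown. All 6 columns of values were used. No sequences of proteins were used here.

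The members and the lists of pathway and marker genes were chosen with earlier results of these data known. The 10439 genes that averaged 1 FPKM or more were compared on log2(FPKM + 0.1), a scale that understates the change of low genes, with limma 3.58.1 in R 4.3.3 (lmFit, eBayes with expression trend and robust prior). Tests were two-sided and adjusted by the Benjamini-Hochberg method over every gene tested. "Called" means an adjusted p under 0.05. YBX1 was also tested by exact permutation. Named were YBX1, every called member, with values per library for the 3 largest changes of a role, the most abundant member of each role, members under the filter and called partners; the remaining members were named to account for all. Results for some of the listed pathway and marker genes are not reported here.

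Alternatives tried were other pseudocounts (1 and 0.01), no filter, a filter at 5 FPKM, scaling by median-of-ratios size factors, by quantiles or to a common total (TPM), a variance prior with no trend, the replicate number as a block, and leaving out each library. Where that left a group with 2 libraries, their spread was pooled by limma. Coordinates are from GENCODE release 29, promoters from RefSeq (GRCh38.p14), with the start nearest to the transcript the table names where one was matched. Other steps used Python 3.11.15, pandas 2.3.3, NumPy 2.4.6, matplotlib 3.10.9 and SciPy 1.17.1.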

Additional observations from a re-analysis of the deposited data

How the results depend on the processing

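All 30 members called higher kept a change above 0 under every alternative in which they were tested, and 18 kept the call in each. With median-of-ratios size factors 18 members were higher and 2 lower, all genes split into 1171 higher and 1273 lower, and the members' median was 0.12. Quantile normalization gave 2 lower members, 1267 and 1184 genes and a median of 0.12. Without a filter on low values the members' median was 0.16. With a filter at 5 FPKM, NDC1, NUP50 and NUP54 gained a call, and XPO4 gained one with a variance prior without trend. No partner was lower without that filter or with a common total, and no member was lower with a variance prior without trend (TNPO2, adjusted p = 0.0641). No member passed the screening criteria in any alternative. For members under the filter this decides little, because the added pseudocount understates their change and only the alternative without a filter held them. NUP210, for example, averaged 0.0461 FPKM in vector and 0.00283 FPKM in shYB1.

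Leaving out 1 library at a time gave 21 to 28 higher and 0 to 1 lower members, 10 to 12 higher and 0 to 1 lower partners, 1323 to 1944 higher and 513 to 606 lower genes, a members' median of 0.16 to 0.18 and a YBX1 change of -1.16 to -1.13. The lower members and partners were 0 there because TNPO2 and RANBP6 missed the threshold, at the adjusted p given with each.

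Direction changed only in members that were not called and lay near 0. With median-of-ratios scaling the log2 fold change was -0.022 for NUP205, -0.055 for NXF1, -0.0014 for RAE1, -0.035 for SEH1L and -0.013 for TNPO3. With quantile normalization it was -0.028, -0.057, -0.0056, -0.033 and -0.012 for the same genes and -0.0056 for TPR, and with a common total -0.0028 for NXF1. With 1 library left out, the changes that crossed 0 ran from -0.091 to 0.034 for AAAS, -0.014 to 0.012 for KPNA6, -0.066 to 0.012 for NUP160, -0.033 to 0.023 for NXF1, -0.023 to 0.10 for RAE1 and -0.039 to 0.10 for SEH1L. The causes were not tested.

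The replicate numbers gave no sign of pairing: deviations of same-numbered libraries correlated at -0.17 to -0.0082 over 3 pairs, against -0.051 to 0.11 for the 6 differently numbered pairs. With the replicate block, 31 members were higher and 1 lower, 12 partners were higher and 1 lower, 2074 genes were higher and 760 lower, and YBX1 changed by -1.14. RCC1 lost its call (0.0575), and NDC1 (0.0375) and SEC13 (0.0350) gained one.

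The absolute depth is unknown, and no detection limit is given for members listed at 0.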
